A study of Mus musculus with 6 samples.

Results

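The Id family comprises the genes Id1, Id2, Id3 and Id4, which encode helix-loop-helix proteins that lack a DNA-binding region. These are 4 of the 9530 genes that could be named on the array, and they were represented by 5 of its 20868 non-control probes, chosen because their accession or description names 1 of the 4 genes or its older name. Id1, Id2 and Id3 had 1 probe each and Id4 had 2. All 5 probes entered the test, none was marked as an outlier, none was saturated, and each lay well above background in both populations on 6 of 6 arrays.

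Both populations were keratinocytes of mouse skin, taken at an age of 7 weeks, freed by trypsin, stained for the alpha-6 integrin and for CD34, and sorted by flow cytometry. The CD34+ population carried both proteins and is called stem and progenitor cells in the labels. The CD34- population carried the alpha-6 integrin alone and is called basal cells. Strain, sex and genotype are not given in the sources used here, nor is the number of mice behind a replicate. There were 3 biological replicates, and in each the populations were set against each other on a pair of 2-colour arrays that differ in which dye each population carries, so each result has n = 3. The number of arrays limits the precision.

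CD34 in mouse skin marks stem cells of the hair follicle bulge. Cd34 itself was 57.3-fold higher in CD34+ cells, which checks the sort and the dye direction and is no finding. Of the other bulge markers, Lhx2, Tcf7l1, Nfatc1 and Tbx1 also passed in the CD34+ direction, and Krt15 was at 0.77 ± 0.52 with an adjusted p of 0.0932 (limma, Benjamini-Hochberg). Itga6, which encodes the integrin carried by both populations, was lower in CD34+ cells by a log2 ratio of -1.18 ± 0.27 (SD, n = 3, limma, adjusted p 0.0180). No tested probe was named for the keratin genes Krt5 and Krt14. The other keratinocyte markers Trp63, Itgb4, Col17a1, Cdh1 and Perp were well above background in both populations on every array. On each array 92.9% to 97.7% of all probes were well above background in a given population, so this does not single out keratinocyte genes.

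Id proteins bind the E proteins, the common partners of tissue-restricted basic helix-loop-helix activators, and the pair that results cannot bind DNA. Their genes are well-known direct targets of BMP signalling through SMAD proteins, and their products are known for holding back differentiation in several tissues. In mouse skin BMP signalling keeps bulge stem cells at rest, and Id2 is also required by Langerhans cells, the dendritic cells of the epidermis.

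The sequences just before the starts of Id2, Id3 and Id4 are shown, and none was available for Id1. They come from the RefSeq promoter table of build GRCm38.p6, which matched these 3 of the 4 genes, and each runs over the 250 bases before the annotated start, 5′ to 3′ on the strand of the gene. The windows are chr12:25096093-25096342 on the minus strand for Id2, chr4:136143572-136143821 on the plus strand for Id3 and chr13:48260866-48261115 on the plus strand for Id4. Capitals mark the letters CCAAT, the CCAAT box, and GGCGCC, a GC-rich element that SMADs are known to bind, on either strand.
Id2: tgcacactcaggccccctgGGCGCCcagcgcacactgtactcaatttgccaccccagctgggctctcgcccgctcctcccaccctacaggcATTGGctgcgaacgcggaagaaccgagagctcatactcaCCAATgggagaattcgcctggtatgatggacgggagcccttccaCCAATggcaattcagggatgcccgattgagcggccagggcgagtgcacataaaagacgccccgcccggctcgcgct
Id3: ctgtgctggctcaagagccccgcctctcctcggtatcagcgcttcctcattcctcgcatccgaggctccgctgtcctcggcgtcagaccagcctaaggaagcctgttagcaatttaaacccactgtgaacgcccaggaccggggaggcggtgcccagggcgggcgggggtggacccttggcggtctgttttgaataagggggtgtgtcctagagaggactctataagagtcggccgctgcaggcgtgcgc
Id4: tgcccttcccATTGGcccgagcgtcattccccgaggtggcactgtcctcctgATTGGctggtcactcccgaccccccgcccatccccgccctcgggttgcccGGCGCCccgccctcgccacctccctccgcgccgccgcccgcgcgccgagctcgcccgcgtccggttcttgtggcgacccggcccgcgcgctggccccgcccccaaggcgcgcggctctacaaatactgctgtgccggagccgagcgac

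The Id2 window held 3 CCAAT matches, beginning at -159, -120 and -76 from the start, and the Id4 window held 2, at -240 and -198. The Id3 window held 0. Among the 32851 promoter windows of the same length in the table, 33.8% had at least 1 CCAAT match, 10.1% had at least 2 and 2.79% had at least 3. GGCGCC, which reads the same on both strands, was present once before Id2, at -231, and once before Id4, at -148, and in 9.59% of all windows. The Id3 window had none. The E-box letters CANNTG, to which E proteins bind, were present once before Id2, at -196, in neither of the other windows, and in 66.2% of all windows. TGACG, a core that CREB and ATF factors bind, was present once before Id3 and once before Id4, and in 17.8% of all windows. TATAAA was in none of the 3 windows and in 12.4% of all windows. No 2 of these matches overlapped, each motif was searched on both strands, and a match is a description of letters.

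All 4 Id genes were higher in CD34+ cells than in CD34- cells by at least 1 probe. Id2 was 4.56-fold higher, Id4 3.76-fold by its brighter probe, Id3 2.14-fold and Id1 1.5-fold, and every 1 of these probes was higher on 6 of 6 arrays. The second Id4 probe did not pass. Brightness was the mean over both populations, so a high CD34+ level itself favoured the pick of a probe. In CD34- cells the second probe had the higher level in replicates 1 and 2. In the fit over all 20214 tested probes (limma, Benjamini-Hochberg adjusted p under 0.05), 4 of the 5 Id probes passed as higher, against 5.38% of all probes. As lower, 0 of the 5 passed, against 6.65% of all probes, and 1 probe did not pass. In RNA pooled over a sorted population, a different share of cells that express a gene and a different amount of its RNA per cell cannot be told apart.

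Levels below are normalised intensities, which include the offset of 50 added in the background correction. Those of the Id probes are compared within a probe, and those of marker lists are also summed over probes. Id2, whose product also binds the retinoblastoma protein, had levels of 2545, 2214 and 993 in the CD34+ cells of replicates 1, 2 and 3, against 441, 402 and 334 in the CD34- cells. The lowest CD34+ level was above every CD34- level, and replicate 3 had the lowest level in both populations. The log2 ratios of CD34+ over CD34- were 2.53, 2.46 and 1.57, with a mean of 2.19 ± 0.53 (SD, n = 3), a 95% confidence interval of 1.61 to 2.77 and an adjusted p of 0.0187 (limma). By size of ratio the Id2 probe ranked 46 among the 20214 tested. Its ratio ran from 1.53 to 2.58 over the 6 arrays, and the arrays of a replicate differed by at most 0.10.

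Id4, described by its probe for NM_031166, had levels of 751, 649 and 657 in CD34+ cells, against 159, 139 and 271 in CD34- cells. The populations did not overlap. In contrast to Id2, the CD34+ levels of the 3 replicates lay close together, and it was the CD34- level that set replicate 3 apart. The log2 ratios were 2.24, 2.22 and 1.28, with a mean of 1.91 ± 0.55 (SD, n = 3), an interval of 1.31 to 2.51 and an adjusted p of 0.0210 (limma), and the probe ranked 65. This probe was dim in CD34- cells, where its raw signal was 1.33 to 2.08 times the local background, against 2.43 to 3.96 times in CD34+ cells.

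The other Id4 probe, designed on the clone AK039372, had levels of 253, 328 and 234 in CD34+ cells, against 255, 317 and 220 in CD34- cells. The populations overlapped, and CD34+ cells were higher in replicates 2 and 3 and lower in replicate 1. The log2 ratios were -0.0097, 0.050 and 0.086, with a mean of 0.042 ± 0.048 (SD, n = 3) and an adjusted p of 0.594 (limma). The 95% confidence interval was -0.083 to 0.17. The offset shrinks the ratio of so dim a probe, and with an offset of 0 the ratio was 0.055. Its raw signal was 1.49 to 2.07 times background in CD34+ cells and 1.46 to 2.79 times in CD34- cells. The brighter Id4 probe exceeded it by 1.87 ± 0.59 on the log2 scale, with the same sign in 3 of 3 replicates. The ratio of Id4 thus depends on the probe chosen, and the mean of both probes was 0.98 with an adjusted p of 0.0207 (limma). Where on the Id4 transcript each probe lies is not given in the sources used here.

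Id3 had levels of 2703, 2992 and 1590 in CD34+ cells, against 1233, 1235 and 861 in CD34- cells. Replicate 3 was again the lowest in both populations, and its CD34+ level was above every CD34- level. The log2 ratios of 1.13, 1.28 and 0.89 gave a mean of 1.10 ± 0.20 (SD, n = 3), an interval of 0.86 to 1.34 and an adjusted p of 0.0143 (limma), the smallest of the family. Its 2 dye orientations differed more than those of the other Id probes, by up to 0.35 within a replicate.

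Id1, often used as a readout of BMP signalling, had levels of 13877, 15489 and 7632 in CD34+ cells, against 11291, 9939 and 4339 in CD34- cells. The CD34+ level of replicate 3 was below the CD34- levels of replicates 1 and 2, so the populations overlapped across replicates, while within every replicate CD34+ cells were higher. The log2 ratios of 0.30, 0.64 and 0.81 gave a mean of 0.58 ± 0.26 (SD, n = 3), an interval of 0.28 to 0.89 and an adjusted p of 0.0469 (limma). A higher ratio was found for 3.03% of the tested probes. The call is close to the threshold: with median centring in place of loess the ratio was 0.28 with an adjusted p of 0.0718, and in a fit with no replicate block, which drops the pairing of populations within arrays, the adjusted p was 0.845.

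**Figure D1:**
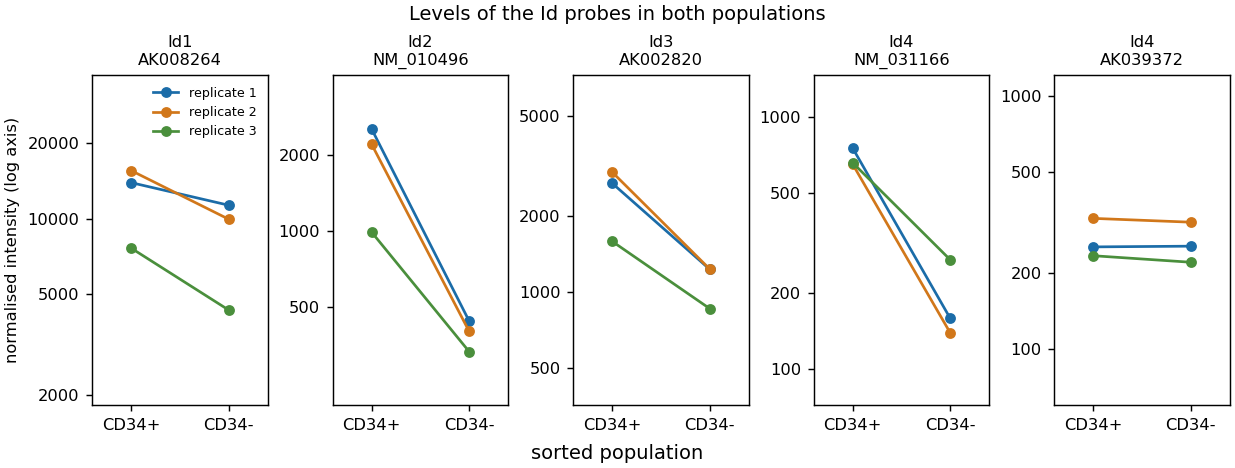
Normalised intensity (log axis) of the 5 Id probes in CD34+ cells (left of each panel) and CD34- cells (right), with 1 line per replicate, each point the mean of 2 arrays. The lines of Id2, Id3, Id1 and the Id4 probe NM_031166 are higher on the CD34+ side in all 3 replicates, and those of the Id4 probe AK039372 are nearly level.

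The ratio of Id2 was the largest of the family, followed by Id4 (NM_031166), Id3 and Id1. The place of Id4 depends on the probe. With the mean of both its probes Id4 was at 0.98, below Id3 at 1.10, and by AK039372 alone, at 0.042, it was the lowest. With 3 replicates an exact two-sided sign-flip permutation test of a difference between probes cannot go below p = 0.25, which is what it gave for each of the 10 pairs of probes, before and after Benjamini-Hochberg adjustment. Id2 exceeded Id4 (NM_031166) by 0.28 ± 0.028, with the same sign in 3 of 3 replicates. These neighbours were nearly equal where no offset was added to the intensities, at 2.36 for Id2 and 2.32 for Id4. Id4 exceeded Id3 by 0.81 ± 0.37, and Id3 exceeded Id1 by 0.51 ± 0.40, a gap that was 0.84 and 0.64 in replicates 1 and 2 and 0.070 in replicate 3. The gap between Id2 and Id1 was 2.23 and 1.82 in replicates 1 and 2 and 0.76 in replicate 3.

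Replicate 3 therefore differed from the others by gene, with the lowest ratio of the 3 for Id2, Id3 and Id4 (NM_031166) and the highest for Id1. Across all tested probes the ratios of replicates 1 and 2 correlated with r = 0.911, those of replicates 1 and 3 with r = 0.684 and those of 2 and 3 with r = 0.757. Probes are not independent replicates and these values are descriptions. The 2 arrays of replicate 3 were read with another version of the scanner software than the other 4, per the file headers. The labels, in contrast, name the same version for all arrays. Without replicate 3 the ratios were 0.47 for Id1, 2.50 for Id2, 1.2 for Id3 and 2.23 for Id4, and each kept its call. Without replicate 1 none of the 4 passed, with adjusted p-values of 0.0919 for Id1 and Id3, 0.0927 for Id2 and 0.103 for Id4, and in that fit 0 of all probes passed although 4648 had an unadjusted p under 0.05 (limma). Without replicate 2, Id3 passed at 0.0465, and Id1, Id2 and Id4 had adjusted p-values of 0.192, 0.0601 and 0.0711.

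**Figure D2:**
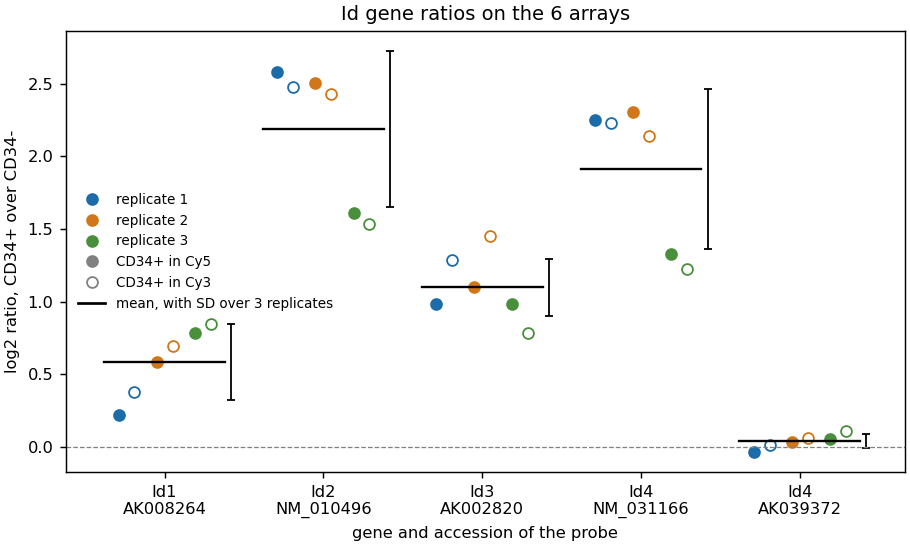
Log2 ratio of CD34+ over CD34- cells for the 5 Id probes on each of the 6 arrays, coloured by replicate, filled where CD34+ was in Cy5 and open where it was in Cy3, with the mean (line) and SD over 3 replicates (bar). Replicate 3 is lowest for Id2, Id3 and the Id4 probe NM_031166 and highest for Id1.

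The scanner software's own log10 ratios, turned to log2, gave the same order of genes, at 2.34 for Id2, 2.33 for Id4 (NM_031166), 1.14 for Id3 and 0.64 for Id1. The deposited p-value of a single array was under 0.01 on 6 of 6 arrays for Id2, Id3 and Id4 (NM_031166), and on 5 of 6 for Id1. For Id4 (AK039372) it ran from 0.377 to 0.925 and was under 0.01 on 0 arrays.

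**Figure D3:**
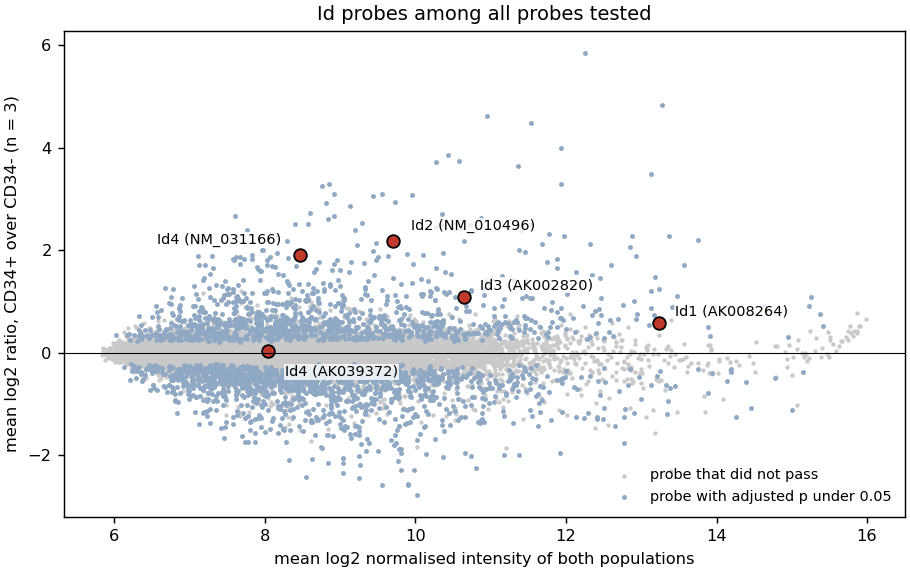
Mean log2 ratio of CD34+ over CD34- cells against the mean log2 normalised intensity of both populations for the 20214 tested probes, with probes that passed in blue and the 5 Id probes in red. Id2 and Id4 (NM_031166) lie far above 0 at middle and low intensity, Id1 lies at high intensity, and Id4 (AK039372) lies at 0.042.

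The direct binding partners of Id proteins are the 3 E proteins, Tcf3, Tcf4 and Tcf12, and 2 of the 3 rose in CD34+ cells while 0 fell, against 5.38% higher and 6.65% lower among all probes. The count was 0 without replicate 1, without replicate 2 and with no replicate block, and 1 with scaling between arrays. It was 3 without replicate 3, with all 6 arrays in the fit and with the software version as a term. Their median log2 ratio was 0.48, against 0.0040 for all tested probes. Tcf4 rose by 0.72 ± 0.28 (SD, n = 3, limma, adjusted p 0.0362), with ratios of 0.82, 0.94 and 0.40. Tcf3, which encodes E12 and E47, rose by 0.40 ± 0.065 (adjusted p 0.0229), with ratios of 0.36, 0.47 and 0.36. Tcf12 was at 0.48 ± 0.30 with an adjusted p of 0.0864, and replicate 3 was again the lowest for it, at 0.14, against 0.65 and 0.66 in replicates 1 and 2. All 3 genes were higher in CD34+ cells on 6 of 6 arrays.

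The tissue-restricted activators need an E protein to bind DNA. Of 37 members tested, 2 rose and 0 fell, with a median of -0.032. The share that rose is near the 5.38% of all probes called higher, so the count is no result about the list. Scx, or scleraxis, known from tendon, rose by 3.10 ± 0.38 (SD, n = 3, limma, adjusted p 0.00815), an 8.56-fold difference larger than that of any Id gene. Atoh8, a member of the atonal group, rose by 1.17 ± 0.47 (adjusted p 0.0349), with ratios of 1.24, 1.59 and 0.67. The remaining 35 did not pass.

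The Hes, Hey and Bhlhe genes encode basic helix-loop-helix repressors, several of them targets of Notch signalling. Of 11 members tested, 1 rose and 2 fell, against 5.38% higher and 6.65% lower among all probes, with a median of -0.036. Without replicate 1 and without replicate 2, 0 passed in either direction, and without replicate 3, 2 rose and 2 fell. Hes6, known as an antagonist of Hes1, rose by 0.51 ± 0.11 (SD, n = 3, limma, adjusted p 0.0213), and Hes1 was lower, at -0.50 ± 0.074 (adjusted p 0.0192). Bhlhe40, a repressor also known from the circadian clock, was lower at -1.80 ± 0.71 (adjusted p 0.0335), with ratios of -1.99 and -2.39 in replicates 1 and 2 and a smaller fall in replicate 3. Both were lower on 6 of 6 arrays.

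BMP signals pass from receptors to SMAD1, SMAD5 and SMAD9 with SMAD4 and reach the Id genes. Of these 12 receptor and SMAD genes, 1 rose and 0 fell, with a median of -0.025, and 1 of 12 is near the 5.38% of all probes called higher. Acvrl1, a type I receptor best known from endothelial cells, rose by 0.43 ± 0.11 (SD, n = 3, limma, adjusted p 0.0270), and did not pass with CD34+ in Cy3 only, with no replicate block, or without replicate 1 or replicate 2. Of 8 endothelial markers, Egfl7 rose by 0.44 ± 0.082 (adjusted p 0.0223) and the other 7 did not pass, among them Pecam1 at -0.0017, Kdr at 0.031 and Cdh5 at -0.061, and the list median was 0.017. The other 11 genes lay between -0.19 for Smad5 and 0.13 for Bmpr1a and did not pass.

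Of 14 other genes known as targets of BMP signals and SMADs, 6 rose and 1 fell in CD34+ cells, against 5.38% higher and 6.65% lower among all probes, with a median of 0.28. The rises numbered 0 without replicate 1, without replicate 2 and with no replicate block. They numbered 3 after the arrays were scaled to each other and 2 on the arrays that held CD34+ in Cy3. Without replicate 3 there were 7, and with all 6 arrays in the fit there were 9. Bambi, a decoy receptor that blocks BMP and TGF-beta signals, rose by 0.89 ± 0.34 (SD, n = 3, limma, adjusted p 0.0331), with ratios of 1.19, 0.94 and 0.53. Smad7, an inhibitory SMAD, rose by 0.69 ± 0.32 (adjusted p 0.0468), with ratios of 0.73, 0.98 and 0.35. The other rises, named after their values were seen, were those of the homeobox genes Dlx5 and Msx2, of the inhibitory Smad6 and of the BMP antagonist Nog, and lay between 0.35 for Nog and 0.62 for Dlx5. Gata3, a zinc-finger factor of epidermis and hair follicle, was lower at -1.75 ± 0.45 (adjusted p 0.0192), on 6 of 6 arrays. In 5 of the 6 genes that rose replicate 3 had the lowest ratio, the exception being Nog. Replicate 3 was also lowest for Id2, Id3 and Id4 (NM_031166). The same held for genes outside this list, among them Cd34, Scx and Col1a2, though not for Klf4 or Egr1. The pattern is therefore not particular to these targets and the Id genes.

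TGF-beta and stress signals are known to act on Id1, among other routes through SMAD3 with the repressor ATF3. Of 9 genes of this list tested, 2 rose and 2 fell, against 5.38% higher and 6.65% lower among all probes, with a median of 0.033. Without replicate 1, 0 passed in either direction, without replicate 2, 0 rose and 1 fell, and without replicate 3, 2 rose and 2 fell. Klf4, a zinc-finger factor of differentiating epidermis, rose by 0.91 ± 0.23 (SD, n = 3, limma, adjusted p 0.0200), with ratios of 0.70, 1.15 and 0.88. Egr1, an immediate early gene, rose by 0.73 ± 0.31 (adjusted p 0.0401), with ratios of 0.38, 0.87 and 0.95, lowest in replicate 1 and highest in replicate 3 as for Id1. Atf3, which represses Id1 in human epithelial cells treated with TGF-beta, was lower at -1.09 ± 0.29 (adjusted p 0.0207), and the receptor Tgfbr2 was lower at -0.58 ± 0.10 (adjusted p 0.0190).

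Id proteins also bind retinoblastoma, ETS and PAX family proteins and hold down cell cycle inhibitors. The list of such genes also held other partners or downstream genes, namely Psmd4, Cops5, Cav1 and Srebf1. Of its 18 genes tested, 0 rose and 1 fell, with a median of -0.055, and 1 of 18 is near the 6.65% of all probes called lower. With all 6 arrays in the fit 2 rose and 6 fell, and with the software version as a term 1 rose and 5 fell. The 1 that passed was Rbl1, which encodes the retinoblastoma relative p107, at -0.31 ± 0.067 (SD, n = 3, limma, adjusted p 0.0348). Cdkn1a, the cell cycle inhibitor p21 and a gene that E proteins activate, had ratios of -1.31, -1.38 and -0.18, a mean of -0.96 ± 0.68 and an adjusted p of 0.101, and was named after its value was seen.

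**Figure D4:**
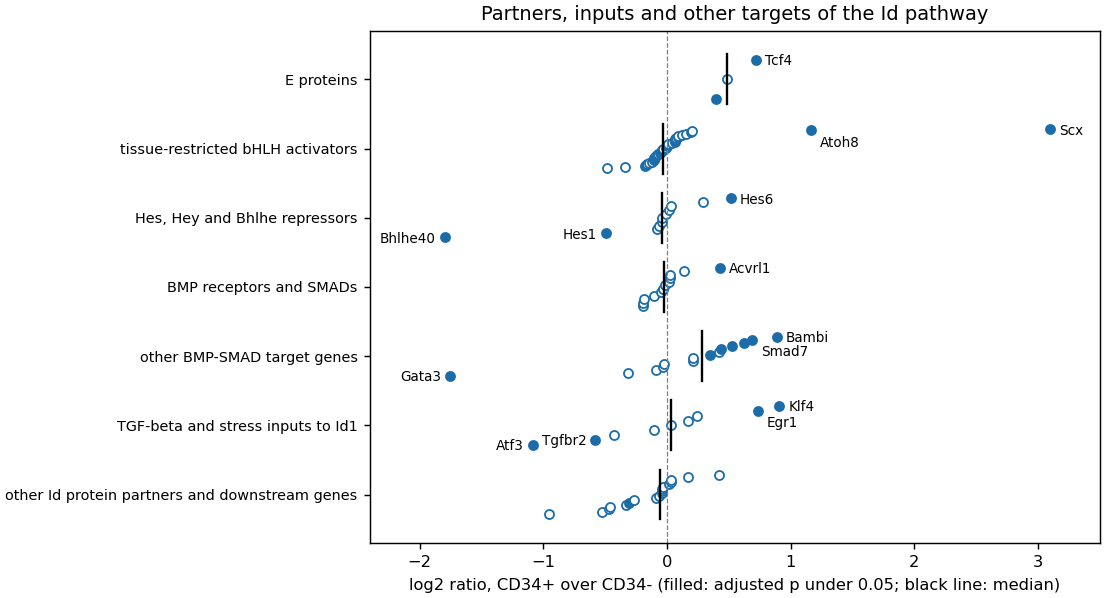
Log2 ratio of CD34+ over CD34- cells of each tested gene in 7 lists around the Id proteins, filled where the adjusted p was under 0.05, with the list median as a black line and up to 2 rises and 2 falls named per list. Medians lie between -0.055 and 0.48.

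Markers of other cell types that a sort of skin cells could hold were read beside the Id genes. Of 8 Langerhans cell markers, 0 rose and 1 fell, with a median of -0.17, and their summed level was 4996 to 6420 in CD34+ cells and 4841 to 5879 in CD34- cells over the replicates. Their defining gene Cd207 had ratios of 0.74, -1.11 and -0.038. The 8 endothelial markers, given above, had summed levels of 1410 to 1849 in CD34+ cells and 1234 to 1545 in CD34- cells. Of 7 T cell markers, 0 passed in either direction, against the same 5.38% and 6.65% of all probes. Their median was 0.21, with summed levels of 2911 to 3700 in CD34+ cells and 2278 to 3248 in CD34- cells. Here Cd3e was the largest part of the sum, at 2100 in CD34+ cells and 1812 in CD34- cells.

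Of 6 fibroblast markers tested, 2 rose and 0 fell, against 5.38% higher among all probes, with a median of 0.21. Their summed level was 1810 to 3225 in CD34+ cells, against 1004 to 1453 in CD34- cells. Its largest part was Fbln1, at 1332 in CD34+ cells and 382 in CD34- cells. Fbln1, the matrix protein fibulin 1, rose by 1.80 ± 0.23 (SD, n = 3, limma, adjusted p 0.00901) and the collagen gene Col1a2 by 1.02 ± 0.11 (adjusted p 0.0104), while Dcn at -0.0042, Pdgfra at 0.074, Twist2 at 0.070 and Lum at 0.34 did not pass, and no tested probe was named for Col1a1 or Col3a1. Of 7 melanocyte markers 2 rose and 1 fell, against 5.38% higher and 6.65% lower among all probes, with a median of 0.012 and summed levels of 13327 to 23651 in CD34+ cells and 30649 to 35765 in CD34- cells. Most of this sum is 1 probe of Tyrp1, at 15503 in CD34+ cells and 32763 in CD34- cells. The other Tyrp1 probe had a log2 ratio of 0.032 with an adjusted p of 0.702 (limma). Of 3 suprabasal keratinocyte markers, 1 rose and 1 fell, against 5.38% higher and 6.65% lower among all probes. Lor, or loricrin, rose by 1.51 ± 0.18 and Krt1 was lower at -2.28 ± 1.10. The summed levels were 6315 to 15901 in CD34+ cells and 4135 to 7114 in CD34- cells. Detection on an array has no true zero, and all tested markers of these lists were well above background on every array except 1 Langerhans and 1 endothelial marker in CD34+ cells, and 1 endothelial and 1 fibroblast marker in CD34- cells. The part of these cells in the Id values was not tested.

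Genes were ranked by how closely their 3 replicate ratios followed those of an Id probe, as the root mean square difference over the 3 replicates among 9279 named genes. Nearest to Id2 were Ecm1, an extracellular matrix protein, at 0.188, Ramp2, a receptor activity-modifying protein, at 0.220, the matrix protein Tnc, or tenascin C, at 0.225, and Upb1, an enzyme of pyrimidine breakdown, at 0.229. Nearest to Id4 (NM_031166) were Gas1, a growth arrest-specific membrane protein, at 0.0873, Armcx2 at 0.110, Ramp2 at 0.127 and Sgce, or epsilon-sarcoglycan, at 0.140. Ramp2, with ratios of 2.20, 2.41 and 1.38, was thus near to both. These genes share arrays with the Id probes and were picked for likeness, so their values carry no test.

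Nearest to Id3 were the inositol trisphosphate receptor Itpr3 at 0.0732, Trim2 at 0.0886, the mitochondrial enzyme Gcat at 0.10 and the phospholipid flippase Atp8a1 at 0.107. Nearest to Id1 were the apolipoprotein gene Apoe at 0.0580, the transcription factor Cebpd at 0.0938, Clec3b, or tetranectin, at 0.0945 and Cst9, a cystatin, at 0.0949. All genes named as nearest to Id1 had, like it, their lowest ratio in replicate 1 and their highest in replicate 3, which their selection for likeness favours. Apoe had ratios of 0.26, 0.55 and 0.78.

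**Figure D5:**
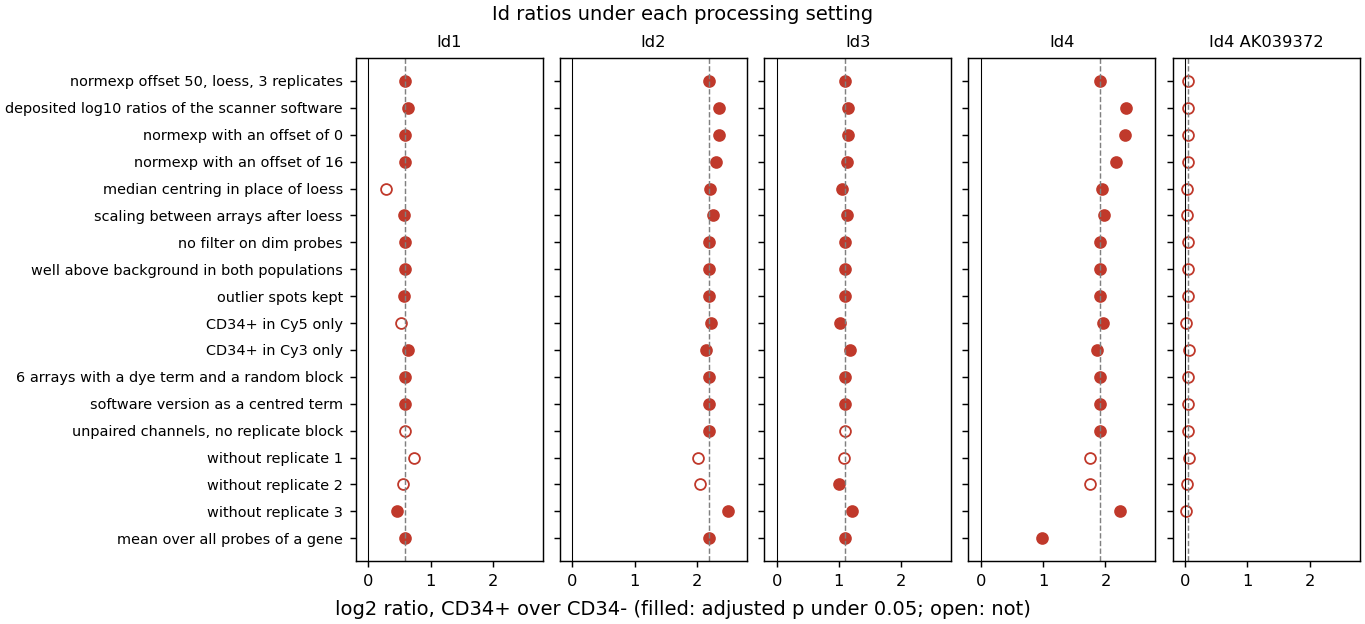
Log2 ratio of CD34+ over CD34- cells for the Id probes under the settings of the main analysis (top) and 17 other settings, filled where the adjusted p was under 0.05 and open where it was not, with the main value as a dashed line. Every ratio of Id1, Id2, Id3 and Id4 lies above 0, and the open points are those of Id1 under 5 settings, of Id2, Id3 and Id4 under 2 each, and of Id4 (AK039372) throughout.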

How the data were processed

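The authors hybridised CD34+ against CD34- RNA on 2-colour Agilent oligonucleotide arrays and deposited 1 scanner file per array. Intensity values are the mean and local background signals of each spot, deposited as the Feature Extraction software wrote them, per the file headers. A log10 ratio per spot (Cy5 over Cy3, after background subtraction and dye normalisation) and its p-value from the software's error model were deposited too, per the file headers. The deposited value table equals the negative of these log10 ratios, and its column medians lay between 0 and 0.00274. The dye of each population came from the labels. The labels number the replicate for 4 arrays, and the other 2 were taken as replicate 3.

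Here limma 3.58.1 in R 4.3.3 corrected mean intensities with normexp (offset 50) and normalised each array by loess, with control and outlier spots at weight 0. After the sign was turned so that CD34+ is on top, replicate spots were averaged, then both arrays of a replicate. Levels came from quantile scaling of mean intensities between arrays. The filter asked that 2 of the 3 replicates show a probe well above background in either population and left out 472 of 20868 probes, and an outlier mark 182 more. The 20214 others were tested against 0 with lmFit and eBayes, with a Benjamini-Hochberg adjusted p under 0.05 as passing. Offsets shrink the ratios of dim probes. Pairing of the populations lies within arrays, and the 2 channels of a replicate deviated together from the mean channels (r of 0.799, 0.718 and 0.811 over probes). The 2 channels are read from the same spots, and the cause of this likeness was not tested. On each array, 92.9% to 97.7% of probes were well above background in a given population. The number of arrays limits precision.

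Genes were named from RefSeq accessions (8947 probes, assembly GRCm38.p6), descriptions or the file's symbols, 11198 probes stayed unnamed, and the brightest probe stood for a gene. The rule named every Id probe, Cd34, Itga6, the E proteins, up to 2 rises and 2 falls per list, or where none passed the member of smallest adjusted p, and the 4 genes nearest each Id gene. Members, lists and rule were chosen with earlier results of these data known. The procedure was tested on simulated arrays. Alternatives changed the ratio source, offset, normalisation, filter, outlier spots, dye, array model, software version, pairing, replicates and probe choice.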

Additional observations from a re-analysis of the deposited data

How the results depend on the processing

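Over 17 alternatives every ratio of Id1, Id2, Id3 and Id4 stayed above 0, and the ranges were 0.28 to 0.73 for Id1, 2.02 to 2.50 for Id2, 1.01 to 1.2 for Id3 and 0.98 to 2.33 for Id4. The adjusted p of Id1 passed under 12 of them, and that of Id2, Id3 and Id4 under 15 each. Id1 did not pass with median centring (0.28, adjusted p 0.0718) or with CD34+ in Cy5 only (0.53, adjusted p 0.0506). Fitted as unpaired channels, with no replicate block, the ratios were the same by construction, at 0.58 for Id1 with an adjusted p of 0.845 and 1.10 for Id3 with 0.111, the adjusted p was 0.0324 for Id2 and 0.0188 for Id4, and 549 probes passed, against 2433. With the replicates left out in turn, Id1 ran from 0.47 to 0.73, Id2 from 2.02 to 2.50, Id3 from 1.01 to 1.2, Id4 from 1.75 to 2.23, and 0 to 4243 probes passed. Fewer samples enter these fits. Id4 (AK039372) ran from 0.019 to 0.068 and did not pass under any of 16 alternatives. Other fits raised the count of probes: 4284 with 6 arrays, a dye term and a random block, and 5358 with the software version as a term.

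List medians also moved. For the E proteins, the median was 0.73 from the deposited ratios, 0.72 with an offset of 0, and 0.39 to 0.66 with replicates left out. For other BMP and SMAD targets it was 0.41 from the deposited ratios and with an offset of 0, 0.35 with an offset of 16 and with the stricter filter, 0.34 with CD34+ in Cy5 only and 0.23 in Cy3 only. For Hes, Hey and Bhlhe repressors it was -0.030 to 0.013 with replicates left out. For tissue-restricted activators it was -0.00083 in Cy3 only. For receptors and SMADs it was 0.019 with median centring and -0.069 in Cy3 only. For TGF-beta inputs it was 0.092 with an offset of 0. For other Id partners it was -0.14 from the deposited ratios, -0.12 with an offset of 0, -0.19 in Cy5 only and -0.18 to -0.040 with replicates left out. The cause of these shifts was not tested. Over the 17 alternatives the members that rose and fell numbered 0 to 3 and 0 for the E proteins, 0 to 3 and 0 to 4 for tissue-restricted activators, 0 to 2 and 0 to 2 for Hes, Hey and Bhlhe repressors, 0 to 1 and 0 to 2 for receptors and SMADs, 0 to 9 and 0 to 2 for other BMP and SMAD targets, 0 to 3 and 0 to 2 for TGF-beta inputs, and 0 to 2 and 0 to 6 for other Id partners. The dim Id4 probe NM_031166 was at 2.32 with an offset of 0, against 1.91 with an offset of 50.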
